A study of Homo sapiens with 64 samples.

Results

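The response of BEAS-2B cells to 2 h of 10 nM indacaterol was described across all annotated genes by setting the 4 arrays labelled indacaterol 2 h against the 4 arrays labelled vehicle 2 h, 8 of the 64 arrays of the series. BEAS-2B is an immortalised human airway epithelial cell line. In the whole study these cells received 10 nM indacaterol, 10 nM GSK 256066, both drugs at 10 nM each, or vehicle, for 1, 2, 6 or 18 h, with 4 replicate arrays in each of the 16 groups. All groups, vehicle included, had 3 days in a serum-free keratinocyte medium (KSFM) that contained epidermal growth factor, bovine pituitary extract and antibiotics, and then 24 h in KSFM before treatment. The labels do not say what the vehicle was or whether the replicates were separate cultures, so the p-values given here measure only the spread between these arrays, which may be technical.

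Indacaterol is a long-acting agonist of the beta2-adrenoceptor, used as an inhaled bronchodilator. The receptor activates adenylyl cyclase through the G protein Gs. The cyclic AMP (cAMP) that this enzyme makes releases the catalytic subunits of protein kinase A (PKA), which phosphorylate the transcription factor CREB and restrain the salt-inducible kinases, so that CREB and its CRTC coactivators act together at cAMP response elements. Phosphodiesterases degrade cAMP, and the PDE4 enzymes, which GSK 256066 inhibits, carry out much of this in airway cells. The question the comparison addresses is which genes respond to the agonist alone at this time.

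At 2 h, 237 of 19775 genes (1.2%) were called, 195 of them higher with indacaterol (0.986% of the genes tested) and 42 lower (0.212%). The nuclear receptors NR4A3 and NR4A2, the long noncoding RNA LINC00473, the secreted protein gene CRISPLD2 and the cytokine IL6 had the greatest rises among called genes, and the transcription factor EGR1 and the thioredoxin-binding protein TXNIP the greatest falls among them. A gene was called at an adjusted p under 0.05 in limma, with Benjamini-Hochberg adjustment over all 19775 genes. The replicate number was not in this model. With it as a block, 587 genes were called higher and 164 lower, so a gene given below as not called may be called there. In the fit without the block, 1584 genes had an unadjusted p under 0.05. Counts at an unadjusted p under 0.05, here and below, include genes that pass by chance. That is a fraction of about 0.05 of the genes tested if none changes, so such a count alone does not show a response. Changes are differences of mean log2(signal + 16), indacaterol minus vehicle, with their standard error (SE), a scale that understates the change of dim genes. Of the called genes 63 rose at least 2-fold on this scale (0.319%) and 2, EGR1 and TXNIP, fell at least 2-fold (0.0101%). The median change was 0.75 over the 195 higher genes and -0.51 over the 42 lower ones, against 0 over all genes tested, and the first 2 medians follow from the calls that chose them.

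**Figure D1:**
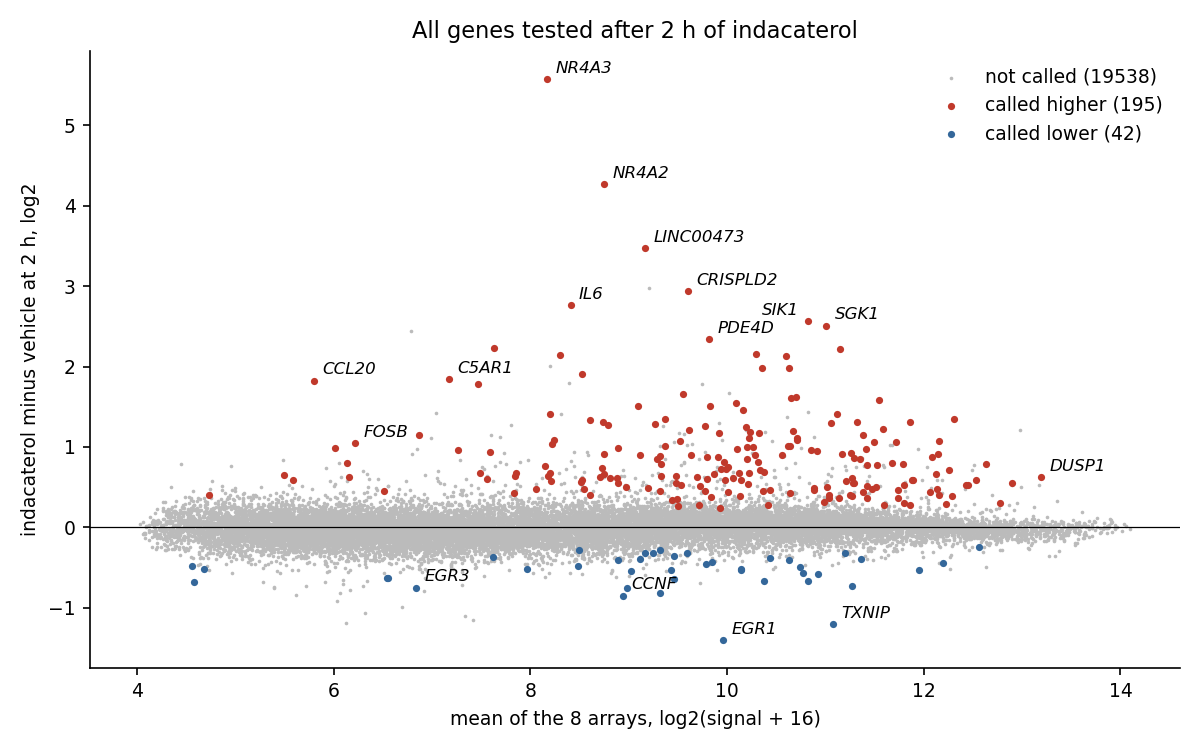
Difference between indacaterol and vehicle at 2 h (log2, y axis) against the mean of the 8 arrays (log2 of signal + 16, x axis) for each of the 19775 genes tested. Red points are the 195 genes called higher with indacaterol, blue points the 42 called lower and grey points the rest. The points called higher reach 5.58 (NR4A3) and those called lower -1.40 (EGR1).

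Signal is the deposited probe-set intensity on a linear scale, and the median signal of the 8 arrays ran from 114.9 to 123.7. The upper quartile was 507.6 on vehicle replicate 1 and 540.5 to 571.4 on the others. No further normalization was applied to the arrays. Levels are compared only within a gene, because probe sets differ in brightness for the same amount of RNA. In 192 of the 195 genes called higher all 4 indacaterol values lay above all 4 vehicle values, and in 41 of the 42 called lower all 4 lay below. Over all genes tested 2.84% were separated upward and 2.66% downward in this way. The 30 greatest rises and 15 greatest falls named below were taken only from called genes separated in this way. That their groups do not overlap therefore follows from the choice. With 4 arrays against 4 an exact two-sided permutation test cannot give a p below 0.0286. In a culture measured in bulk, less RNA per cell and fewer cells with that RNA cannot be told apart.

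The arrays numbered 3 stood apart from the other arrays of both groups, and the same held across the series. In each of the 16 groups the highest signal of any probe set was on replicate 3. It ran from 265800 to 1082000 on those arrays and from 16840 to 18910 on all others. The labels do not say what sets them apart. The summed signal of 15 epithelial and keratin markers was 353000 on indacaterol replicate 3 and 24240 to 26640 on the other indacaterol arrays, and 359300 on vehicle replicate 3 and 22470 to 23140 on the other vehicle arrays. Most of this sum was basal keratin: KRT14 had a signal of 283100 on indacaterol replicate 3 and 18.91 to 34.43 on the other 3, and of 290500 on vehicle replicate 3 and 17.93 to 26.7 on the other 3. The part of this difference in the results was not tested beyond leaving those arrays out and fitting the replicate number as a block. Without replicate 3 in every group of the fit, 240 genes were called higher and 36 lower, among them 163 and 25 of the calls above. With the block on all arrays 587 were called higher and 164 lower, among them all of the calls above.

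The cells were checked against markers of their label and of other cell types. The simple-epithelial keratin KRT18 was present on all 8 arrays, at 7921 to 9351 with indacaterol and 7561 to 8236 with vehicle. So was the mesenchymal filament gene VIM, at 10610 to 12140 with indacaterol and 10400 to 10910 with vehicle. The adhesion gene EPCAM, by contrast, had a signal of 46.02 to 206.3 with indacaterol and 69.1 to 205.4 with vehicle, around the array median. The leukocyte marker PTPRC (24.07 to 30.23 with indacaterol, 25.49 to 34 with vehicle) and the ciliated-cell factor FOXJ1 (13.09 to 17.14 with indacaterol, 6.694 to 19.43 with vehicle) lay well below the array median. No member of the epithelial (15 measured), mesenchymal (15), leukocyte (13) or ciliated and secretory (11) lists was called in the fit to all arrays, and the list medians lay between -0.06 and 0.03. Without replicate 3, 1 of these markers was called, CLDN1 of the epithelial list, at 0.67 (adjusted p = 0.00919), against 0.75 with all arrays (adjusted p = 0.568).

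Promoter windows of 6 called genes, from 250 bases before to 50 bases after the annotated start, are shown because they bear the motifs that CREB is known to bind. They are RefSeq sequences on GRCh38.p14, written 5′ to 3′ on the strand of the gene. Capitals mark each match to the cAMP response element TGACGTCA or to its core, TGACG or CGTCA, searched on both strands. The full element contains the core on each strand, so that every full match is also a pair of overlapping core matches.
NR4A3: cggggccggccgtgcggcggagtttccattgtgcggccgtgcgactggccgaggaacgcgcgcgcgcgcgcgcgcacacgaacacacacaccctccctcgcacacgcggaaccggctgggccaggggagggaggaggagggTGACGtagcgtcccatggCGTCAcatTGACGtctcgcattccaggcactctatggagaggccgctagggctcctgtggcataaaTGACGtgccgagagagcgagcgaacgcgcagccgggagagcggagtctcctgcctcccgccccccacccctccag
LINC00473: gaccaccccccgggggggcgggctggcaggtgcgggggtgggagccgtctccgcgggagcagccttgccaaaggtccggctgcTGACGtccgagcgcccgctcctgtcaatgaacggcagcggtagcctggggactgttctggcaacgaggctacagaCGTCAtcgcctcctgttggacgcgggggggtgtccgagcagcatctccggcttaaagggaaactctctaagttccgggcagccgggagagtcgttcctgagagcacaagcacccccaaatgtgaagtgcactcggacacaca
SIK1: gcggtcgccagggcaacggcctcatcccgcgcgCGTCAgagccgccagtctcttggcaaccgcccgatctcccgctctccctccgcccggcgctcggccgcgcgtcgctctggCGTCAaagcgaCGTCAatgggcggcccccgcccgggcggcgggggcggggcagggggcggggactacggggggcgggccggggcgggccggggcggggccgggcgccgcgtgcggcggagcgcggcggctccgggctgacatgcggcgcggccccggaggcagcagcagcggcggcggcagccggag
MAFF: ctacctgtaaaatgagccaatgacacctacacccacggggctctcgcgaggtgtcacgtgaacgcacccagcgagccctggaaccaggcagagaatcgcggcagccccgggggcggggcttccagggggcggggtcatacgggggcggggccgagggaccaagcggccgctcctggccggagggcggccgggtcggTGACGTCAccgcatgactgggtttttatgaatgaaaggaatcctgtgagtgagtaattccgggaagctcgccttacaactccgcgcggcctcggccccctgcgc
DUSP1: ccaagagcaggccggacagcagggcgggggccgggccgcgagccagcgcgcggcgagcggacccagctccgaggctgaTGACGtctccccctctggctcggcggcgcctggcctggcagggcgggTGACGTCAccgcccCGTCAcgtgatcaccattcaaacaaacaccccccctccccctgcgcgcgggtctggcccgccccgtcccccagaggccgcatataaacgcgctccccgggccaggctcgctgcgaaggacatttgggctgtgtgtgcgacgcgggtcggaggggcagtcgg
EGR1: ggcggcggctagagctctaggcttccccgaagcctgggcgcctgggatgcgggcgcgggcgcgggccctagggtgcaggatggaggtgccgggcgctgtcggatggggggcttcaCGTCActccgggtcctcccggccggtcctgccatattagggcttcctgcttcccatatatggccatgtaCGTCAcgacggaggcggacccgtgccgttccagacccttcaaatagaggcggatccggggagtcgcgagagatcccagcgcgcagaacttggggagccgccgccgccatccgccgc
These windows lie at chr9:99821635-99821934 (NR4A3, plus strand), chr6:165987990-165988289 (LINC00473, minus strand), chr21:43427082-43427381 (SIK1, minus strand), chr22:38201744-38202043 (MAFF, plus strand), chr5:172771146-172771445 (DUSP1, minus strand) and chr5:138465229-138465528 (EGR1, plus strand). The window of NR4A3 held 4 cores and no full element, LINC00473 held 2 cores and SIK1 held 3. A window of MAFF (of 2 for that gene) and that of DUSP1 each held 1 full element, which begins 54 bases before the start in MAFF and 125 bases before it in DUSP1. EGR1, which fell, also held 2 cores.

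Windows were on hand for 156 of the 195 genes called higher and 30 of the 42 called lower, and some genes had several. The full element was found in 4.91% of the 285 windows of genes called higher, 5.13% of the 39 windows of genes called lower and 2.35% of the 21490 windows of all genes tested. The core was found in 36.5%, 25.6% and 28% of these windows. A match describes letters in a window, not binding. Among the 30 greatest rises, SLC7A2, TBX3, NR4A2, SLC2A3, TRIB1 and FAM167A had no window in the table.

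Of 17 measured members of the receptor, Gs, arrestin, receptor kinase and adenylyl cyclase list, 0 were called in limma, their changes ran from -0.35 to 0.29 and their median was 0.05. The beta2-adrenoceptor gene itself was not analysed here. None of 19 measured PKA subunits, PKA inhibitors, anchoring proteins and EPAC was called either (median 0.05). The 2 greatest changes there were AKAP12, an anchoring protein that assembles PKA with the receptor, and PKIB, an inhibitor of the catalytic subunit. AKAP12 had a signal of 6271, 5874, 4967 and 5129 with indacaterol, against 3917, 4381, 2772 and 3834 with vehicle (change 0.59 ± 0.18 SE, adjusted p = 0.125). The corresponding values of PKIB were 203.8, 137.9, 190.3 and 135.3, against 121.7, 114.6, 94.98 and 109.1 (0.52 ± 0.16, adjusted p = 0.136). In both genes the groups did not overlap, and without replicate 3 AKAP12 was called higher (0.51, adjusted p = 0.000204). Values are given here and below for replicates 1 to 4 in that order. The counts of called list members, here and below, stand beside 0.986% of all genes called higher and 0.212% lower, 1.2% in all. At that share 0 calls in a short list is no result about its members, and no list was tested as a set.

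The cAMP-degrading enzymes included 2 genes that rose, both of the PDE4 family, out of 14 phosphodiesterases measured (list median 0.09). PDE4D had a signal of 2486, 1542, 3483 and 1240 with indacaterol, against 460, 300.4, 540.7 and 291.3 with vehicle, 5.5 times as high by the means and 2.34 ± 0.44 on the log2 scale (adjusted p = 0.000665). PDE4B had 646.7, 610.7, 830.1 and 560.2 with indacaterol, against 295.7, 379.7, 278.9 and 341.5 with vehicle (0.99 ± 0.22, adjusted p = 0.00741). In neither gene did the groups overlap. PDE4D was higher with indacaterol in 4 of its 6 probe sets, with changes of 1.92 to 2.34, and the other 2 probe sets gave 0.05 and -0.13. The call of PDE4B was lost when indacaterol replicate 3 was left out (adjusted p = 0.0645). PDE4A, another PDE4 gene, changed by 0.08, and the cAMP-specific PDE7 and PDE8 genes by 0.02 to 0.21.

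Among 12 measured CREB family members, coactivators and salt-inducible kinases, SIK1, SIK2 and CREM rose (list median 0.13). The salt-inducible kinases phosphorylate CRTCs and keep them in the cytoplasm, and CREM encodes activators and the repressor ICER. SIK1 had a signal of 5619, 3888, 5787 and 2884 with indacaterol, against 795.7, 734.6, 838.7 and 567.2 with vehicle (2.56 ± 0.38, adjusted p = 1.28e-05). SIK2 had 1441, 922.7, 1764 and 817.5 with indacaterol, against 479.4, 471.8, 534.6 and 512.4 with vehicle (1.21 ± 0.19, adjusted p = 2.56e-05). CREM had 664.3, 481.6, 671.8 and 450.3 with indacaterol, against 347.4, 399.9, 363.8 and 393.4 with vehicle. Its change of 0.55 ± 0.11 (adjusted p = 0.00194) was the smallest of the trio, and without replicate 3 it was 0.45 and no longer called (adjusted p = 0.105). Probe sets of one gene can read different transcripts, and the 6 of CREM ranged from -0.02 to 0.68. CREB1 (-0.11), CRTC1 (-0.13), CRTC2 (0.03), CRTC3 (0.24) and SIK3 (0.13) were not called.

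Immediate early factors held the widest range of any list, from 5.58 to -1.40. Of 19 measured members 7 rose, NR4A1, NR4A2, NR4A3, FOSB, FOSL2, MYC and BTG1, and 2 fell, EGR1 and EGR3 (list median 0.52, against 0 over all genes). The NR4A genes encode orphan nuclear receptors that CREB is known to induce. NR4A3 had a signal of 3091, 1394, 3054 and 1145 with indacaterol, against 40.38, 34.86, 14.95 and 18 with vehicle. All 4 indacaterol values were thus far above the array median and all 4 vehicle values below it. The change was 5.58 ± 0.58 (adjusted p = 1.81e-09). Its size depends on the constant added before the log, with 6.25 for a constant of 1 and 4.50 for 64, and on the probe sets, with 3.42 for the mean of all 3. NR4A2 had 3258, 955.2, 5290 and 730.1 with indacaterol, against 80.22, 67.12, 108.2 and 76.11 with vehicle (4.27 ± 0.75, adjusted p = 0.000188). NR4A1 had 792.6, 560.8, 808.3 and 488.3 with indacaterol, against 178.5, 173.3, 91.07 and 113.1 with vehicle (2.14 ± 0.26, adjusted p = 2.09e-07). For all members of the trio replicates 1 and 3 were higher than replicates 2 and 4 with indacaterol. The dimmest of the 3 probe sets of each gene gave 0.10 for NR4A3, 3.88 for NR4A2 and -0.18 for NR4A1.

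Of the AP-1 subunits, FOSL2 and FOSB were called and FOS was not. FOSL2 had a signal of 4826, 4046, 5001 and 3028 with indacaterol, against 1894, 2141, 2129 and 1783 with vehicle (1.06 ± 0.15, adjusted p = 7.17e-06). FOSB, dim on all arrays, had 129.6, 97.14, 88.25 and 61.36 with indacaterol, against 46.7, 46.46, 18.69 and 37.84 with vehicle (1.05 ± 0.24, adjusted p = 0.0066), and lost its call without replicate 3 (0.87, adjusted p = 0.146), with 1 in place of 16 added before the log (1.34, adjusted p = 0.211), and without indacaterol replicate 1 or without vehicle replicate 3 (adjusted p up to 0.0852). FOS itself had 226.4, 142.8, 550.8 and 82.35 with indacaterol, against 86.28, 61.35, 86.38 and 35.99 with vehicle. Those groups overlapped and the change of 1.42 ± 0.53 was not called (adjusted p = 0.319). MYC, a driver of growth, had 3528, 3496, 4155 and 3193 with indacaterol, against 1974, 2317, 1989 and 2051 with vehicle (0.78 ± 0.14, adjusted p = 0.000547). The antiproliferative gene BTG1 rose by 0.52 ± 0.13 (adjusted p = 0.0221). BTG1 lost its call when any of indacaterol replicates 1, 2 or 3 or vehicle replicates 1, 2 or 4 was left out (adjusted p up to 0.14).

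EGR1, an early growth response factor known as a target of ERK signalling, had the greatest fall of all called genes. Its signal was 922.7, 619.9, 628.6 and 349 with indacaterol, against 1932, 1642, 1436 and 1418 with vehicle, so that the groups were well apart. The mean with indacaterol was 0.392 of the vehicle mean (-1.40 ± 0.19, adjusted p = 1.3e-06). When limma was fitted to the arrays of these groups alone, EGR1 was not called (adjusted p = 0.0862). Its relative EGR3 had 69.69, 75.94, 83.49 and 62.54 with indacaterol, against 133.8, 144.5, 133.5 and 120.4 with vehicle (-0.75 ± 0.18, adjusted p = 0.0138). EGR3 lost its call when indacaterol replicate 1 or 4 or vehicle replicate 2 was left out (adjusted p up to 0.0677). EGR2 was not analysed here.

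**Figure D2:**
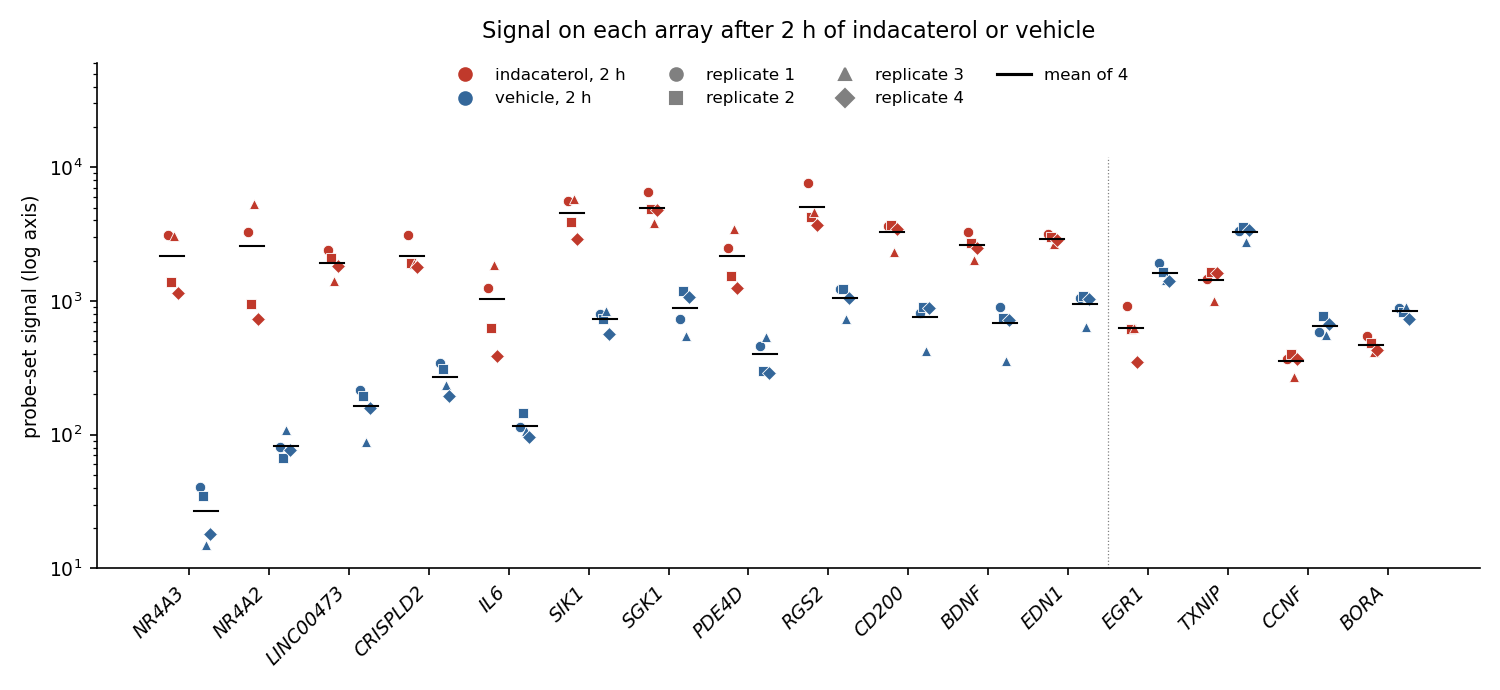
Signal (log axis) of 16 called genes on each array, with the 4 indacaterol arrays in red left of the 4 vehicle arrays in blue, marker shape for the replicate number and a black line for the mean of 4. In all 12 genes left of the dotted line the indacaterol values lie above every vehicle value, and in EGR1, TXNIP, CCNF and BORA they lie below. The rule that chose the greatest rises and falls requires this. Replicate 3 is the lowest vehicle array in 7 of the 12 genes that rose.

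C/EBP and Krüppel-like factors, which control differentiation and inflammation genes, had 3 rises and 1 fall among 17 measured (list median 0.25). CEBPB had a signal of 9958, 8532, 10020 and 8543 with indacaterol, against 6347, 6210, 6733 and 5957 with vehicle (0.55 ± 0.12, adjusted p = 0.00503). CEBPD had 8385, 7754, 10590 and 6884 with indacaterol, against 4923, 4791, 5848 and 3843 with vehicle (0.79 ± 0.17, adjusted p = 0.00398). A second, dimmer CEBPD probe set gave 1.58. KLF6 rose by 0.53 ± 0.11 (adjusted p = 0.00365). KLF7, a family member linked to neuronal growth, fell: its signal was 329.9, 490.9, 320.4 and 376.7 with indacaterol, against 600.3, 601.6, 643 and 726.7 with vehicle (-0.75 ± 0.16, adjusted p = 0.00399). The other 4 probe sets of KLF7 gave -0.43, -0.48, -0.07 and -0.05, and the mean of all 5 was -0.36. KLF4 differed by 1.03 ± 0.77 without a call (adjusted p = 0.883). Its signal was 1306, 747.5, 3032 and 530.6 with indacaterol, against 579.6, 304.7, 1955 and 239 with vehicle, so that within every replicate number it was higher with indacaterol while the groups overlapped.

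Among the hormone-responsive genes, 5 rose of 20 measured members of a list of genes that glucocorticoids induce in airway cells, a class often studied beside beta2-agonists (list median 0.38). Over all genes 0.986% were called higher. CRISPLD2, a secreted protein, had a signal of 3118, 1910, 1902 and 1797 with indacaterol, against 342.4, 309.8, 233.5 and 194.3 with vehicle (2.94 ± 0.37, adjusted p = 2.58e-07). Its other, dimmer probe set gave -0.13. SGK1, a kinase that controls ion transport, had 6502, 4857, 3810 and 4764 with indacaterol, against 728.5, 1192, 550.2 and 1077 with vehicle (2.51 ± 0.23, adjusted p = 6.11e-11). No called gene had a smaller p than SGK1. RGS2, which shortens signalling by Gq and was the only one of 12 RGS family members called, had 7679, 4224, 4658 and 3696 with indacaterol, against 1221, 1221, 734.8 and 1049 with vehicle (2.21 ± 0.28, adjusted p = 2.92e-07). DUSP1, a phosphatase that turns off p38 and JNK, had 12370, 11690, 11030 and 11340 with indacaterol, against 8199, 8391, 6010 and 7710 with vehicle (0.62 ± 0.12, adjusted p = 0.000898). Another, dimmer DUSP1 probe set gave 1.31. The fifth was CEBPD. CDKN1C, a cell cycle inhibitor on the same list, had 3063, 833.8, 5384 and 818.2 with indacaterol, against 653.3, 389.3, 920.3 and 442 with vehicle. Its groups overlapped and its change of 1.67 ± 0.62 was not called (adjusted p = 0.314).

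Of the inflammatory mediators, 4 of 28 measured cytokines and chemokines rose (list median 0.18), against 0.986% of all genes called higher. IL6 had a signal of 1257, 629.7, 1855 and 386.4 with indacaterol, against 114.4, 145.8, 106.4 and 95.93 with vehicle, a difference of 2.77 ± 0.47 (adjusted p = 0.00011). Vehicle arrays lay around the array median and all indacaterol arrays above it. The neutrophil chemokine CXCL2 had 482.9, 243.8, 569.4 and 139.8 with indacaterol, against 78.62, 65.92, 119.6 and 64.72 with vehicle (1.78 ± 0.40, adjusted p = 0.00629). CXCL2 lost its call without indacaterol replicate 1 or 3 (adjusted p up to 0.0754), and its 2 dimmer probe sets gave -0.07 and 0.15. The mean of its 3 probe sets was not called either (0.62, adjusted p = 0.0791). CCL20, which attracts cells bearing CCR6, had 80.29, 76.94, 167.1 and 57.92 with indacaterol, against 12.1, 7.775, 16.83 and 19.14 with vehicle (1.82 ± 0.33, adjusted p = 0.00034). These CCL20 values are dim, since 3 of the 4 indacaterol arrays were below the array median. IL15, a lymphocyte growth factor, had 1037, 835.3, 758.2 and 796.1 with indacaterol, against 443.9, 465.3, 398.3 and 513 with vehicle (0.88 ± 0.17, adjusted p = 0.00123). CCL2 had 1066, 1318, 880.3 and 800.6 with indacaterol, against 554.9, 595.7, 334.4 and 442.2 with vehicle, groups that did not overlap, and was not called (1.06 ± 0.34, adjusted p = 0.148), but was without replicate 3 (0.96, adjusted p = 0.0487). None of the 14 prostaglandin genes was called (median 0.01), among them PTGS2 with a change of 0.41.

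Growth and vascular factors gave 3 calls, all higher, among 25 measured (list median 0.24), against 0.986% of all genes called higher. BDNF, a neurotrophin and a classical CREB target in neurons, had a signal of 3264, 2724, 2026 and 2501 with indacaterol, against 897.9, 746.5, 355.5 and 721.8 with vehicle (1.98 ± 0.37, adjusted p = 0.000665). EDN1, the precursor of the constrictor peptide endothelin 1, had 3158, 3002, 2668 and 2866 with indacaterol, against 1046, 1098, 643.2 and 1027 with vehicle (1.63 ± 0.18, adjusted p = 1.72e-08). In both genes vehicle replicate 3 was the lowest array. VEGFC, a lymphatic growth factor, rose by 0.63 ± 0.16 (adjusted p = 0.0185) and lost its call without indacaterol replicate 2 or 4 or vehicle replicate 1 or 3 (adjusted p up to 0.092). BMP2 had 515, 75.18, 963.7 and 76.53 with indacaterol, against 45.37, 2.248, 201.6 and 4.759 with vehicle. It was higher with indacaterol within each replicate number, yet the groups overlapped and the change of 2.44 ± 1.1 was not called (adjusted p = 0.569).

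Feedback inhibitors of kinase signalling included DUSP1 and 2 further rises among 17 MAPK phosphatases, Sprouty and SPRED genes (list median 0.06). DUSP4, which acts on ERK in the nucleus, had a signal of 3553, 3274, 3748 and 2949 with indacaterol, against 1683, 2056, 1610 and 1726 with vehicle (0.93 ± 0.14, adjusted p = 1.04e-05). SPRY2, an inhibitor of receptor tyrosine kinase signalling, rose by 0.85 ± 0.21 (adjusted p = 0.0223) and lost its call without indacaterol replicate 1 or 3 or vehicle replicate 1 or 4 (adjusted p up to 0.266). DUSP6, a cytoplasmic ERK phosphatase, had a change of -0.52 ± 0.34 that was not called. TRIB1, a pseudokinase that directs proteins to degradation, had 1389, 1502, 1066 and 1327 with indacaterol, against 349.6, 529.4, 341.2 and 426.4 with vehicle (1.66 ± 0.19, adjusted p = 1.72e-08). NOG, an inhibitor of BMPs, and TGIF1, a corepressor of TGF-beta signalling, rose among 13 genes of TGF-beta and BMP feedback (list median 0.24). The change was 1.15 ± 0.17 for TGIF1 (adjusted p = 1.28e-05) and 0.96 ± 0.23 for NOG (adjusted p = 0.0166), and NOG lost its call without indacaterol replicate 1 or 3 or vehicle replicate 2 or 4 (adjusted p up to 0.149).

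Genes of fuel and amino acid handling moved in both directions. TXNIP, an arrestin-domain protein that binds thioredoxin and limits glucose uptake, had a signal of 1466, 1647, 995 and 1631 with indacaterol, against 3363, 3566, 2757 and 3419 with vehicle. Its mean with indacaterol was 0.438 of the vehicle mean (-1.20 ± 0.21, adjusted p = 0.000169), and its other 2 probe sets both gave -1.30. SLC2A3, the glucose transporter GLUT3, had 2632, 2026, 1564 and 1400 with indacaterol, against 704.3, 841.5, 395.8 and 635.3 with vehicle (1.55 ± 0.32, adjusted p = 0.00227). SLC7A2 and SLC7A1, transporters of cationic amino acids, rose by 1.46 ± 0.19 (adjusted p = 9.65e-07) and 0.46 ± 0.09 (adjusted p = 0.00111). The other probe sets of SLC7A2 gave 0.92 and -0.33, and the mean of its 3 was 0.69 (adjusted p = 8.86e-06). SLC19A2, a thiamine transporter, rose by 1.26 ± 0.20 (adjusted p = 3.9e-05). These 4 were the calls among 23 measured transport genes (list median 0.16). TXNIP and TRIB1 were the calls among 8 Tribbles and arrestin-domain genes (median -0.02). None of 12 measured sterol synthesis genes was called (median -0.01).

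Other lists held a few calls each, all higher, against 0.986% of all genes called higher. The clock-linked repressors NFIL3 and BHLHE40 rose by 1.22 ± 0.31 (adjusted p = 0.0261) and 1.12 ± 0.25 (adjusted p = 0.0067) among 15 clock genes (median 0.01). NFIL3 lost its call without indacaterol replicate 1 or 3 or vehicle replicate 1, 2 or 4 (adjusted p up to 0.212), and BHLHE40 without indacaterol replicate 3 (adjusted p = 0.0704). Of 22 YAP target genes (median 0.04), the matricellular gene CCN2 rose by 1.31 ± 0.28 (adjusted p = 0.00429). IGFBP3, which binds insulin-like growth factors, rose by 0.92 ± 0.17 (adjusted p = 0.000372). FJX1 rose by 0.55 ± 0.12 (adjusted p = 0.00638) and lost its call without vehicle replicate 1 (adjusted p = 0.0716). The ER chaperone and degradation genes HERPUD1 and DNAJB9 rose by 0.60 ± 0.098 (adjusted p = 6.89e-05) and 0.37 ± 0.093 (adjusted p = 0.0237), with CEBPB the calls among 24 amino acid and ER stress genes (median 0.09). DNAJB9 lost its call without indacaterol replicate 1, 2 or 3 or vehicle replicate 1 (adjusted p up to 0.177). Of 11 mRNA decay and NF-kB feedback genes (median 0.28), ZC3H12C rose by 0.90 ± 0.21 (adjusted p = 0.00929) and the NF-kB regulator NFKBIZ by 0.59 ± 0.15 (adjusted p = 0.027). ZC3H12C lost its call without indacaterol replicate 3 or vehicle replicate 2 (adjusted p up to 0.144). NFKBIZ lost it without replicate 3 (adjusted p = 0.0625) and when any of indacaterol replicates 1, 2 or 3 or vehicle replicates 1, 3 or 4 was left out (adjusted p up to 0.135). Averaged over all probe sets of each gene, HERPUD1 (0.25, adjusted p = 0.777), DNAJB9 (0.32, 0.426), ZC3H12C (0.41, 0.184) and NFKBIZ (0.41, 0.127) were not called. None of 13 measured G1 cyclins and CDK inhibitors was called (median -0.03).

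**Figure D3:**
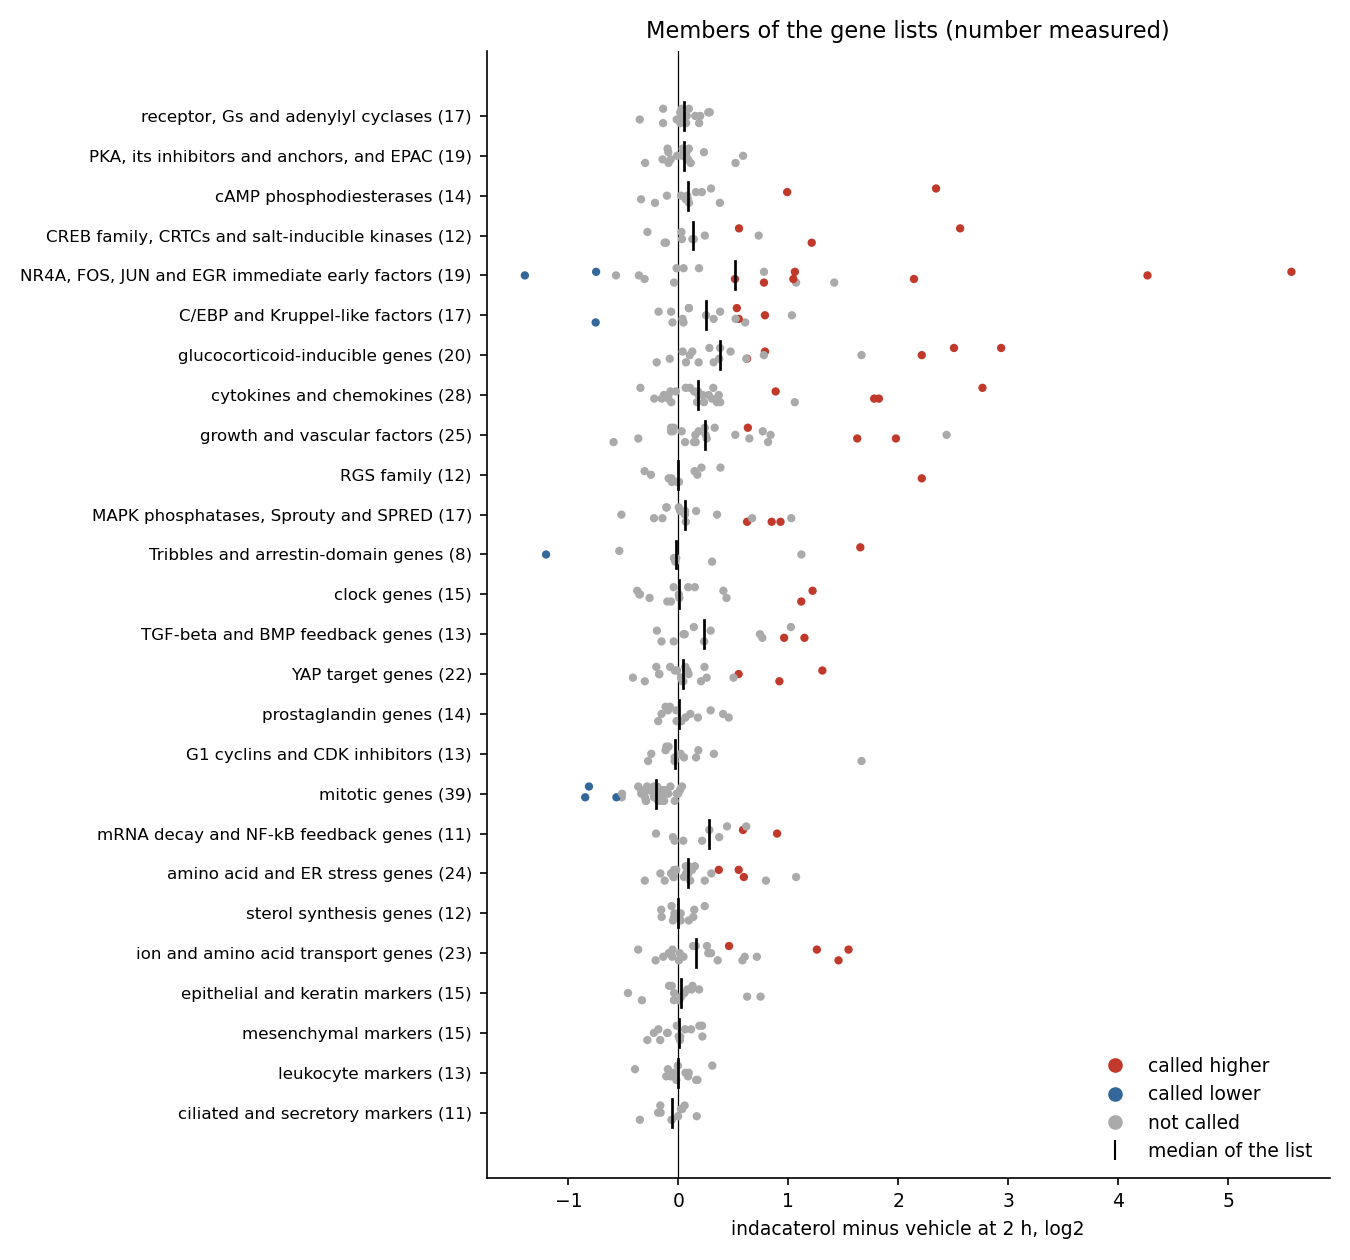
Change between indacaterol and vehicle at 2 h (log2, x axis) of every measured member of the 26 gene lists, 1 row a list with the number measured, with called genes in red (higher) or blue (lower), others in grey and the list median as a black line. Calls are spread thinly over most lists, and the median ran from -0.21 (mitotic genes) to 0.52 (immediate early factors).

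Further genes among the 30 greatest rises lie outside these lists. LINC00473, a cAMP-inducible long noncoding RNA, had a signal of 2417, 2084, 1410 and 1837 with indacaterol, against 214.1, 195.3, 88.61 and 158.9 with vehicle (3.47 ± 0.33, adjusted p = 1.82e-10). PRDM1, the repressor Blimp-1, rose by 2.23 ± 0.28 (adjusted p = 2.82e-07) in its brightest probe set, and the other 2 gave 0.51 and 0.36. CD200, a surface glycoprotein that restrains myeloid cells, had 3631, 3712, 2320 and 3471 with indacaterol, against 814.7, 902.1, 424.1 and 887.7 with vehicle (2.13 ± 0.32, adjusted p = 1.41e-05). Replicate 3 was the lowest CD200 array in both groups, and the groups did not overlap. C5AR1, the receptor of complement fragment C5a, had 336.2, 270.5, 279.2 and 170.2 with indacaterol, against 57.16, 57.5, 68.2 and 57.32 with vehicle (1.85 ± 0.31, adjusted p = 0.00011). All C5AR1 vehicle values were below the array median and all indacaterol values above it.

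HRK, a BH3-only activator of apoptosis, had a signal of 758.5, 896.2, 425.9 and 833.9 with indacaterol, against 160.5, 257, 82.97 and 262.3 with vehicle (1.91 ± 0.45, adjusted p = 0.0117). The groups did not overlap, and HRK lost its call without indacaterol replicate 2 or vehicle replicate 3 (adjusted p up to 0.107). CASP9, the initiator caspase of the mitochondrial pathway, had 2184, 1020, 2267 and 1059 with indacaterol, against 502.2, 553.1, 499.1 and 537.5 with vehicle (1.51 ± 0.20, adjusted p = 1.08e-06). With indacaterol, CASP9 was higher on replicates 1 and 3 than on replicates 2 and 4, while the vehicle arrays were close together.

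The remaining rises of the 30 had diverse roles. Transcription factors among them were ZNF331 (1.98 ± 0.26, adjusted p = 5.25e-07), the T-box repressor TBX3 (1.41 ± 0.14, adjusted p = 6.63e-10) and the small Maf protein MAFF (1.41 ± 0.28, adjusted p = 0.00132). Of the other 6 probe sets of TBX3, 1 gave 1.70, 1 gave 0.44 and 4 gave -0.30 to 0.14, and the mean of all 7 was 0.49. ITPRIP, which binds the inositol trisphosphate receptor, rose by 2.16 ± 0.22 (adjusted p = 1.09e-09). CPEB4, an RNA-binding protein of cytoplasmic polyadenylation, rose by 1.61 ± 0.28 (adjusted p = 0.000156), and 1 of its 4 probe sets gave -0.34. CHMP1B, an ESCRT-III subunit, rose by 1.58 ± 0.25 (adjusted p = 2.56e-05) and AVPI1, a gene known to respond to vasopressin, by 1.35 ± 0.19 (adjusted p = 4.32e-06). FAM167A rose by 1.51 ± 0.25 (adjusted p = 8.27e-05). In all 8 of these genes the 4 indacaterol values lay above the 4 vehicle values, which the rule that chose the 30 requires.

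Of 39 measured mitotic genes, 3 were called lower and 0 higher, against 0.212% of all genes called lower, and the list median was -0.21, against 0 over all genes. Most of the 42 genes called lower, 35, lie in none of the lists. The estimate was below 0 in 37 of the 39 (94.9%, against 49.9% of all genes), and the unadjusted 95% interval lay below 0 in 15 (38.5%, against 3.53%). These shares only describe the list, which was chosen with earlier results of these data known. Its members were measured on the same arrays and may move together, and the list as a set was not tested. CCNF, the substrate receptor of an SCF ubiquitin ligase, had a signal of 370.3, 400.6, 271.3 and 370.6 with indacaterol, against 586.9, 767.5, 558.5 and 674.1 with vehicle (-0.85 ± 0.16, adjusted p = 0.000418). BORA, which activates Aurora A and PLK1, had 551.1, 487.1, 412.2 and 428.3 with indacaterol, against 880.3, 830.9, 901.1 and 726.9 with vehicle (-0.81 ± 0.12, adjusted p = 6.23e-06). CDCA8, a subunit of the chromosomal passenger complex, had 1744, 1479, 1200 and 1333 with indacaterol, against 2298, 2272, 2122 and 1801 with vehicle (-0.56 ± 0.11, adjusted p = 0.00186). In none of the trio did the groups overlap. CDCA8 lost its call without replicate 3 (-0.48, adjusted p = 0.0534), where the list median was -0.16 and 2 members were called lower. Of the rest, AURKA changed by -0.51 ± 0.16 (adjusted p = 0.135), KIF23 by -0.51 ± 0.22 and PLK1 by -0.30, and none of these was called.

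**Figure D4:**
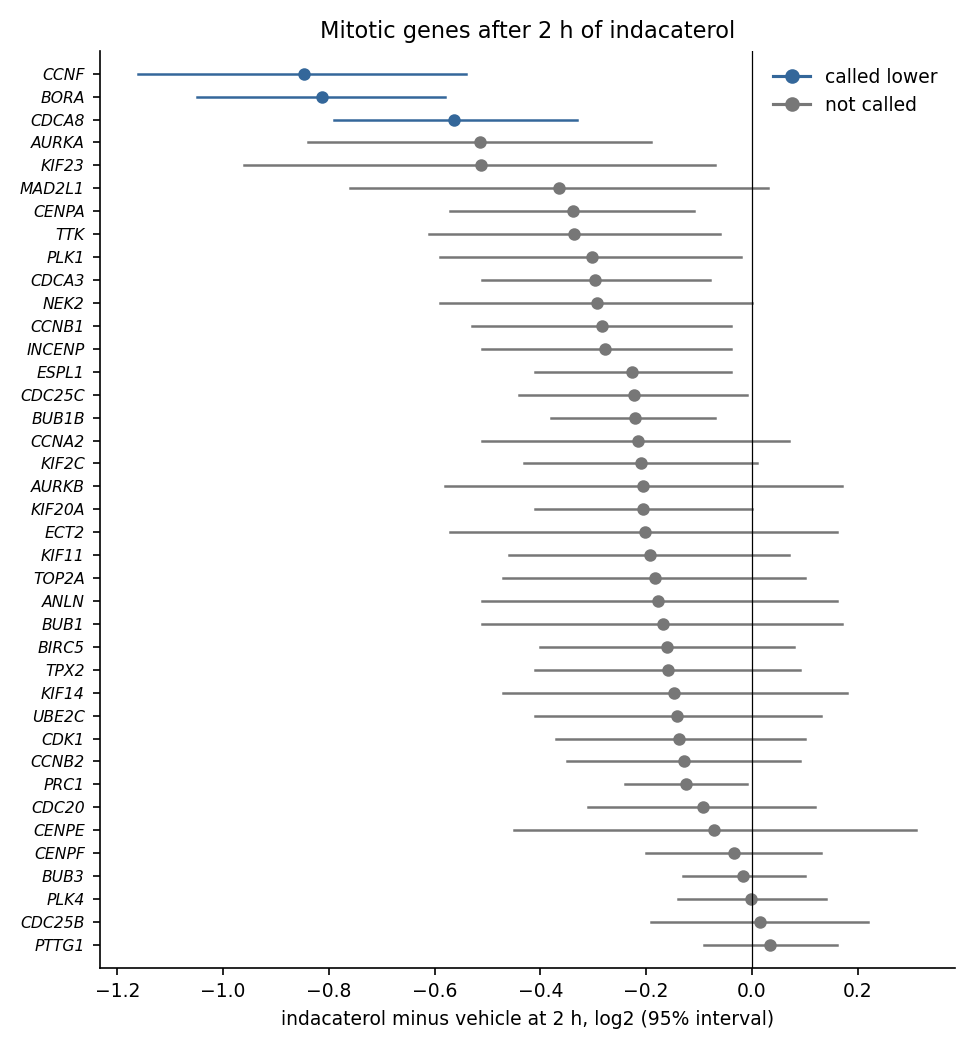
Change between indacaterol and vehicle at 2 h (log2, x axis) of the 39 mitotic genes, from the greatest fall at the top, each point with its unadjusted 95% interval. CCNF, BORA and CDCA8 (blue) were called lower, and the 36 others (grey) were not.

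Other genes of division stood among the 15 greatest falls outside that list. HJURP, the chaperone that loads the centromeric histone CENP-A, had a signal of 1786, 1400, 1162 and 1406 with indacaterol, against 2613, 2215, 2281 and 1987 with vehicle (-0.66 ± 0.13, adjusted p = 0.000917). The spindle protein PSRC1 had 1309, 1118, 926.2 and 871.7 with indacaterol, against 1920, 1750, 1609 and 1434 with vehicle (-0.67 ± 0.15, adjusted p = 0.00467), and was not called without replicate 3 (-0.63, adjusted p = 0.09). DBF4, which activates the replication kinase CDC7, fell by 0.58 ± 0.12 (adjusted p = 0.00437). MXD3, a MAX partner that opposes MYC, fell by 0.64 ± 0.13 (adjusted p = 0.00294) and the ubiquitin ligase TRIM59 by 0.73 ± 0.16 (adjusted p = 0.00491). ANKRD34A, below the array median on all 8 arrays, fell by 0.63 ± 0.11 (adjusted p = 0.00011). RPH3AL-AS1 was called lower (-0.68 ± 0.18, adjusted p = 0.0471) from signals of 0.01 to 7.25 with indacaterol and 10.34 to 22.38 with vehicle, at the bottom of the array, and its call was lost in 12 of 17 alternatives, with adjusted p up to 0.298 when single arrays were left out.

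The 2 h response was set beside the responses at 1 and 6 h, which have vehicle arrays of their own. At 1 h 37 genes were called higher (0.187%) and 5 lower (0.0253%), at 6 h 45 higher (0.228%) and 9 lower (0.0455%), and at 18 h 1 higher (0.00506%) and 0 lower in limma (0%). At 18 h 875 genes had an unadjusted p under 0.05, 190 of them lower. Of the 195 genes called higher at 2 h, 32 were also called higher at 1 h (32 of the 37 there) and 22 at 6 h (22 of the 45). Of the 42 called lower, 1 was also called lower at 1 h (of 5) and 2 at 6 h (of 9). The median change of the 195 was 0.22 at 1 h, 0.75 at 2 h, 0.26 at 6 h and 0.03 at 18 h, where the value at 2 h is raised by the choice of the genes at that time. A call at one time and none at another does not show a difference between times, so the differences themselves were tested.

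The change at 2 h differed from that at 1 h in 3 genes (0.0152%). CRISPLD2 changed by 0.30 ± 0.37 at 1 h and 2.94 ± 0.37 at 2 h, a difference of 2.64 ± 0.52 (adjusted p = 0.0343). SLC7A2 changed by 0.05 ± 0.19 at 1 h and 1.46 ± 0.19 at 2 h, a difference of 1.41 ± 0.27 (adjusted p = 0.0343). CYP2E1, a dim cytochrome gene, changed by 0.56 ± 0.097 at 1 h and -0.19 ± 0.097 at 2 h, a difference of -0.75 ± 0.14 (adjusted p = 0.0316). These calls rest on few arrays: leaving out 1 of the 16 arrays ended that of CRISPLD2 in 11 cases, SLC7A2 in 10 and CYP2E1 in 8 (adjusted p up to 0.163). Without replicate 3 none of the 3 was called (adjusted p = 0.126 for CRISPLD2, 0.17 for SLC7A2 and 0.105 for CYP2E1). With the mean of all probe sets of a gene 0 genes were called. Unadjusted, 983 genes had p under 0.05 for this difference.

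Between 2 and 6 h 11 genes differed (0.0556%), 6 with a change above that at 6 h (0.0303%) and 5 below it (0.0253%). SGK1 (2.20 at 1 h, 2.51 at 2 h, 0.62 at 6 h), NR4A1 (1.66, 2.14 and 0.26), ITPRIP (1.37, 2.16 and 0.59), EDN1 (1.77, 1.63 and 0.25), TRIB1 (2.13, 1.66 and 0.31) and TBX3 (0.52, 1.41 and 0.34) had changes higher at 2 h than at 6 h, by 1.07 to 1.89 with adjusted p from 0.00184 to 0.0132. The falls of BORA, HJURP and PHF23 at 2 h (-0.81, -0.66 and -0.40) stood beside changes of 0.10, 0.19 and 0.06 at 6 h, and the differences of -0.92, -0.86 and -0.47 were called (adjusted p from 0.00562 to 0.0322). CSGALNACT1, an enzyme of chondroitin sulfate synthesis, and PDE7B, a cAMP phosphodiesterase, were the reverse, with changes of 0.12 and 0.09 at 2 h and 2.58 and 1.95 at 6 h (differences of -2.46 ± 0.36 and -1.87 ± 0.31, adjusted p = 0.000175 and 0.00184). Without replicate 3, NR4A1 (adjusted p = 0.177), ITPRIP (0.248), HJURP (0.478) and BORA (0.283) were no longer called in this test. Leaving out single arrays ended the call of HJURP in 10 of 16 cases, NR4A1 in 7, ITPRIP in 4, TRIB1 in 4 and EDN1 in 1. Unadjusted, 716 genes had p under 0.05.

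**Figure D5:**
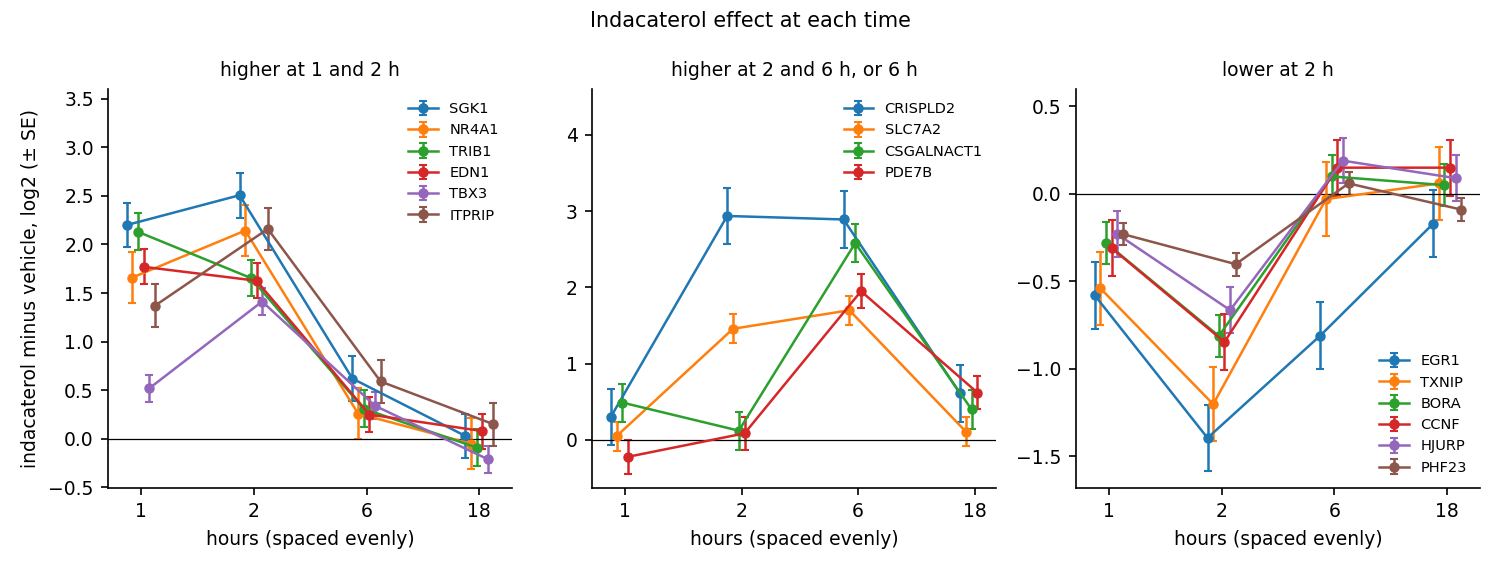
Change between indacaterol and vehicle (log2, ± SE) at 1, 2, 6 and 18 h, with times spaced evenly, for genes in which the change at 2 h was compared with that at 1 or 6 h, and for EGR1, TXNIP and CCNF. SGK1, NR4A1, TRIB1, EDN1, TBX3 and ITPRIP (left) are highest at 1 or 2 h, CRISPLD2 and SLC7A2 (middle) are high at 2 and 6 h, CSGALNACT1 and PDE7B at 6 h, and the genes on the right are lowest at 2 h.

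The other treatments at 2 h share the vehicle arrays, so their changes are not independent of those above and are only given side by side. With both drugs NR4A3 changed by 5.46, IL6 by 2.75, SIK1 by 2.62, PDE4D by 2.46, RGS2 by 2.16, EGR1 by -1.55 and TXNIP by -1.42, against 5.58, 2.77, 2.56, 2.34, 2.21, -1.40 and -1.20 with indacaterol alone. With GSK 256066 alone the same genes changed by 1.83, 0.21, 0.46, 0.62, 0.20, -0.15 and -0.01. Both drugs gave 170 calls higher (0.86%) and 38 lower (0.192%), and GSK 256066 alone gave 0 in limma in either direction (0%). With GSK 256066 alone 899 genes had an unadjusted p under 0.05, 761 of them lower, and such genes include those that pass by chance. Replicate 2 of that group had a median signal of 101.2 and an upper quartile of 441.4. On the other arrays of the group these were 114.9 to 123.8 and 520.1 to 549.6. The part of this array in the count of lower genes was not tested.

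Among the alternative fits, some moved the number of genes called by over 1.5 times. With the replicate number as a block, 587 genes were called higher and 164 lower. When the model was fitted to the 8 arrays alone, 60 genes were called higher and 3 lower, and 38 of the 72 genes named by rule kept their call. Among those that lost it were EGR1 (adjusted p = 0.0862), CCNF (0.0682), HJURP (0.141), SIK2 (0.088), CASP9 (0.0774), SLC2A3 (0.0648), CEBPB (0.0576), CEBPD (0.13) and DUSP1 (0.088). After quantile normalization 204 were called higher and 132 lower, a share of 60.7% higher against 82.3% in the fit described here. The mean of all probe sets of a gene moved the size of 17 named genes by over 1.5 times. Besides those given above, these were CRISPLD2 (1.40), PDE4D (1.41), NR4A1 (1.31), TRIB1 (1.08), PRDM1 (1.03), HRK (1.16), FAM167A (0.77), SIK2 (0.67) and TGIF1 (0.71), each smaller than with 1 probe set, and CEBPD (1.19 against 0.79). With a constant of 64, CCL20 changed by 0.99, FOSB by 0.63 and ANKRD34A by -0.42. RPH3AL-AS1 changed by -2.21 with a constant of 1 and -0.23 with 64. Without replicate 3, further list members were called that were not with all arrays. These were higher for SLC7A5 (0.84, adjusted p = 8.9e-06), SLC7A11 (0.80, 4e-05), LATS2 (0.43, 3.28e-05), DUSP10 (0.47, 0.00332) and GREM1 (0.74, 0.0402), and lower for PDGFB (-0.55, 0.00231) and FOSL1 (-0.58, 0.0325).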

How the data were processed

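Total RNA of BEAS-2B cells was converted to biotinylated cRNA for Affymetrix arrays, per the labels' protocols. The authors deposited 1 table of probe-set intensities on a linear scale; PLIER and Transcriptome Analysis Console 4 are named in the submitters' processing notes, and background and normalization settings are not given in the sources used here. Each intensity was taken as log2(signal + 16), with no further normalization. Each gene was represented by the probe set with 1 gene symbol and the highest mean over the 64 arrays, leaving 19775 genes; 13522 probe sets without a single symbol were set aside, and a Y-linked gene is not reported. The number of arrays limits the precision.

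One mean per group was fitted to all 64 arrays with limma 3.58.1 in R 4.3.3 (lmFit and eBayes, 48 residual degrees of freedom). P-values were two-sided and Benjamini-Hochberg adjusted over all genes. The fit was tested on simulated data in which all arrays were independent, so that test does not cover the likeness of same-numbered arrays. Genes were named by rule: of those called with groups apart, the top 30 by rise and the top 15 by fall, then called members of 26 lists, other list members as examples, and up to 5 genes of each sign per time difference. The members and lists were chosen with earlier results of these data known. Alternatives changed the added constant, normalization, filter, probe-set rule, block, arrays fitted and replicates. Promoter windows came from RefSeq on GRCh38.p14.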

Additional observations from a re-analysis of the deposited data

Results flagged for a closer look

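Of 144 groups of 4 values, for the 72 named genes, 5 held an array far from the other 3, and chance alone flags about 1 in 20 groups. With indacaterol at 2 h these were CRISPLD2 on replicate 1 (signal 3118, the others 1797 to 1910) and CD200 on replicate 3 (2320, the others 3471 to 3712). With vehicle they were CD200 (424.1, the others 814.7 to 902.1), C5AR1 (68.2, the others 57.16 to 57.5) and EDN1 (643.2, the others 1027 to 1098), all on replicate 3.

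The change with indacaterol differed between times in 14 genes by the test of the difference itself. Between 2 and 1 h the difference was 2.64 for CRISPLD2, 1.41 for SLC7A2 and -0.75 for CYP2E1. Between 2 and 6 h it was 1.89 for SGK1, 1.88 for NR4A1, 1.57 for ITPRIP, 1.37 for EDN1, 1.34 for TRIB1 and 1.07 for TBX3, and -0.47 for PHF23, -0.86 for HJURP, -0.92 for BORA, -1.87 for PDE7B and -2.46 for CSGALNACT1.

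Among the 13522 probe sets without a single gene symbol, which the gene comparison does not use, 41 were called at 2 h, 24 higher with indacaterol and 17 lower.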

How the results depend on the processing

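Over the 86 tested changes and differences of named genes, 1472 recomputed values kept direction and side of the threshold, 182 kept direction and lost the call, and 0 reversed. The 195 and 42 genes called higher and lower became 204 and 132 after quantile normalization, and 60 and 3 with only the arrays of the groups compared, where 38 of 72 named genes kept the call; fewer arrays then estimate the spread. The number of genes whose change differed between 2 and 1 h (3) was 1 with an added constant of 1, 6 with 64, 6 after quantile normalization, 5 after median centring, 0 with the mean of all probe sets and 0 with only the arrays compared. Between 2 and 6 h (11) it was 18 with a constant of 64, 43 after quantile normalization, 3 with only the arrays compared and 20 without replicate 3 in every group. Leaving out 1 array at a time gave 132 to 189 genes higher, 29 to 40 lower, 61 to 69 named genes with their call, and 0 to 10 and 6 to 18 genes for the differences from 1 and 6 h. The cause was not tested. Dim genes are limited most: the mean vehicle signal was below 100 in 16 of the 195 genes called higher.

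With the replicate number as a block, 587 genes were called higher and 164 lower, among them all 195 and 42, and 101 and 162 genes differed from 1 and 6 h. Without replicate 3 in every group and with the block these counts were 504, 82, 70 and 107. With the block on all arrays, the genes gained in the receptor, PKA and marker lists were AKAP12, PKIB, CLDN1, KRT7 and THY1 higher and ARRB1 and BPIFA1 lower. Genes given above as not called that were called with the block included BMP2 (adjusted p = 5.86e-13), CCL2 (1.21e-05), CDKN1C (2.92e-05), FOS (3.03e-05) and KLF4 (0.00048), all higher, and AURKA (0.00145), lower. Deviations of same-numbered arrays correlated at 0.0802, 0.675, 0.826 and 0.475 for replicates 1 to 4. Pairing was taken as given only where every correlation was over 0.1, and replicate 1 missed this. Each array correlated best with that of its own number, a hint from the data and not from the design.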

Other observations

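Of the 237 called genes 186 lie in none of the lists, 151 higher and 35 lower with indacaterol. The genes in these paragraphs were chosen from them after their values were seen, and no test of a group was made. Unlike those of the genes named by rule, their calls were not followed gene by gene through the alternative fits or the other probe sets. Surface proteins that restrain immune or clotting reactions were among the rises. CD274, the checkpoint ligand PD-L1, had a signal of 645.8, 404, 303.4 and 354.8 with indacaterol, against 217.7, 219.8, 158 and 178.6 with vehicle (1.03 ± 0.21, adjusted p = 0.00141). CD55, which inhibits complement, had 4790, 5214, 5386 and 4152 with indacaterol, against 2288, 2811, 1663 and 2671 with vehicle (1.07 ± 0.28, adjusted p = 0.0387). THBD, thrombomodulin, had 1261, 1470, 2300 and 991.3 with indacaterol, against 597.3, 791.8, 595.7 and 554.9 with vehicle (1.17 ± 0.24, adjusted p = 0.00217). In these genes the groups did not overlap.

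Enzymes of glycan synthesis also rose: CHSY1, a chondroitin synthase, by 0.80 ± 0.11 (adjusted p = 1.17e-06), HS6ST1, a heparan sulfate sulfotransferase, by 0.67 ± 0.13 (adjusted p = 0.00123), and the sialyltransferase ST3GAL4 by 0.58 ± 0.13 (adjusted p = 0.00582). NPC1, which exports cholesterol from lysosomes, rose by 0.79 ± 0.12 (adjusted p = 2.94e-05). The potassium channel genes KCNK1 and KCNG1 rose by 0.91 ± 0.19 and 0.68 ± 0.14 (adjusted p = 0.00254 for each). NR3C1, the glucocorticoid receptor, had 5121, 5646, 5078 and 5325 with indacaterol, against 4044, 4490, 4872 and 3992 with vehicle (0.29 ± 0.075, adjusted p = 0.0364).

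Changes of at least 1.5 on the log2 scale without a call were seen in 6 genes, BMP2 and CDKN1C among them. Some sex-chromosome transcripts were left out of this count. PDK4, a kinase that restrains pyruvate oxidation, had a signal of 3886, 585.4, 7085 and 444.6 with indacaterol, against 475.7, 46.18, 1052 and 45.07 with vehicle (2.98 ± 1.5, adjusted p = 0.614). Replicates 1 and 3 were the highest PDK4 arrays in both groups. The lipase LPL had 2070, 1009, 2954 and 1018 with indacaterol, against 441.6, 310.4, 781.4 and 377.7 with vehicle, groups that did not overlap (1.78 ± 0.53, adjusted p = 0.0947).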
